A study of Mus musculus with 4 samples.

Results

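The interferon-inducible GTPases described here are 10 mouse genes, Gbp2, Gbp3, Gbp4, Gbp5, Gbp6, Gbp7, Igtp, Iigp1, Irgm1 and Irgm2, chosen by symbol from the 32285 features of 4 single-cell libraries. All 10 were found and had UMIs (unique molecular identifiers, each marking a captured transcript) in all 4 libraries. Their levels are given per cell class at 0 h and 12 h, beside those of Ifit1, Ifit3 and Rsad2 in the same cells. The libraries hold CD45+ leukocytes from the liver of mice of the genotype IL-22sgBFP, which carry a blue fluorescent reporter of the cytokine IL-22. Liver was taken before (0 h) or 12 h after an injection of MC38 cells, a mouse colon cancer line, into the spleen, from which cells reach the liver through the portal vein. At each time the leukocytes were sorted into IL-22-BFP-negative and IL-22-BFP-positive fractions, with 1 library for each of the 4 combinations, and all 4 groups share the genotype. The labels give no number, age or sex of mice, and no library of mice injected without cancer cells was analysed here, so the effects of the cancer cells, the injection and the library itself cannot be told apart.

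Interferons are cytokines of the defence against viruses, intracellular bacteria and parasites. Interferon gamma, made mainly by T cells, NK cells and innate lymphoid cells, acts mainly through GAS elements in promoters, whereas type I interferons act mainly through ISRE elements. The guanylate-binding proteins (GBPs) and the immunity-related GTPases (IRGs) are GTP-hydrolysing proteins that assemble on the vacuoles of intracellular pathogens and on free bacteria, and they can expose microbial products to inflammasomes. Irgm1, Irgm2 and Igtp (IRGM3) are the regulatory IRGs that keep effector IRGs such as Iigp1 (IRGA6) inactive on the cell's own membranes. Ifit1 and Ifit3 bind foreign RNA or support that binding, and Rsad2 (viperin) makes an antiviral nucleotide; these 3 genes are widely used as readouts of type I interferon. GTPases of both families are known as strongly induced by interferon gamma, and many also respond to type I interferon.

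Gbp2, Gbp3, Gbp5 and Gbp7 lie in one region on the plus strand of chromosome 3 in GRCm38: Gbp5 at chr3:142493978-142522344, Gbp7 at chr3:142530342-142550149, Gbp3 at chr3:142560026-142573209 and Gbp2 at chr3:142620602-142638008. Gbp4 (chr5:105115767-105139586) and Gbp6 (chr5:105270702-105293698) lie on the minus strand of chromosome 5. The IRG genes Igtp (chr11:58199556-58207591) and Irgm2 (chr11:58199618-58222782) have overlapping annotated spans on the plus strand of chromosome 11 and Irgm1 (chr11:48861968-48871683) lies on its minus strand. Ifit1 (chr19:34640871-34650009) and Ifit3 (chr19:34583531-34588731) lie in one region of chromosome 19, and Rsad2 (chr12:26442746-26456452, minus strand) lies on chromosome 12. All 13 are protein-coding.

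The stretches upstream of the RefSeq start sites (GRCm38.p6) are shown for 4 GTPases and 2 contrast genes, to show the ISRE letters found in both sets and the GAS letters found in some GTPases. Each stretch is 170 bases long and ends at the base before the start site. Capitals mark matches to GAS (TTCNNNGAA, which reads the same on both strands) or ISRE (GAAA, any 2 bases and GAAA, or on the other strand TTTC, any 2 bases and TTTC), and matches that overlap run together. The positions are chr3:142620493-142620662 (plus strand), chr3:142496764-142496933 (plus strand), chr11:58199386-58199555 (plus strand), chr11:58214807-58214976 (plus strand), chr19:34640719-34640888 (plus strand) and chr12:26456453-26456622 (minus strand). The Gbp2, Gbp5, Irgm2 and Ifit1 stretches reach into, or lie within, the longer gene spans of the GENCODE annotation given above.
Gbp2: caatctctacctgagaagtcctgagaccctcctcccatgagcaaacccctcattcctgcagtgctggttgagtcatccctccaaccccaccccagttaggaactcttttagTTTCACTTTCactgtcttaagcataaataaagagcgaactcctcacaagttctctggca
Gbp5: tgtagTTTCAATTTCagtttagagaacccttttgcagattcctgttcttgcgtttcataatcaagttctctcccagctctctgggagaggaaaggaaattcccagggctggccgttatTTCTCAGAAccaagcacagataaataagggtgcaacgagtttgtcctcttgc
Igtp: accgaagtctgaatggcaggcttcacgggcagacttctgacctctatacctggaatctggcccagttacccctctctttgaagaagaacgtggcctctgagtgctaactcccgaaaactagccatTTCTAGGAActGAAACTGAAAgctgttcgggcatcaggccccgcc
Irgm2: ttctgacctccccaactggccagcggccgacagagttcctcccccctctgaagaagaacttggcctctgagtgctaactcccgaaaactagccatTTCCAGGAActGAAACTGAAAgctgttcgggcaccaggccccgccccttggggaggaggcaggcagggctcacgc
Ifit1: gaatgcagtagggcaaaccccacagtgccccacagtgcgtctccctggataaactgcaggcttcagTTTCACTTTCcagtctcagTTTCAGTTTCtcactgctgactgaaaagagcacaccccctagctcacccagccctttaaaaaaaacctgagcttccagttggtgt
Rsad2: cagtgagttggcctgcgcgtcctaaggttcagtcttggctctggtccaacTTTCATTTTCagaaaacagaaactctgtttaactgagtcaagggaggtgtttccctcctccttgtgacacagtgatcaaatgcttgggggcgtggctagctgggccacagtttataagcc

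Igtp and Irgm2 held a GAS match followed at once by an ISRE match, the GAS 45 and 75 bases and the ISRE 34 and 64 bases before the start site. Windows of 250 bases before to 50 after the start were used for 7 of the 10 GTPases, and all 7 held an ISRE match. A GAS match was found in 4 of the 7 (Gbp5, Gbp7, Igtp and Irgm2), and Gbp7 held GAS matches 106 and 87 bases before its start. Ifit1, Ifit3 and Rsad2 each held an ISRE match and none held GAS. Of all 32851 windows, 8.30% held GAS, 3.44% held ISRE and 0.454% held both. These shares are per window, while the counts above are per gene. A match to these letters describes the sequence and is not a measured binding site. Windows for Gbp4, Gbp6 and Iigp1 were not used here, so the counts do not cover these members. Any window on chromosome 18, where Iigp1 lies, was skipped.

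The IL-22-negative libraries had 8555 barcodes at 0 h and 10231 at 12 h, and the IL-22-positive ones 300 and 1378, with 18891674, 29859062, 1148221 and 5048583 UMIs. After filters and doublet removal 19203 cells were kept, with median depths of 1794, 2169, 3352 and 3719 UMIs. The libraries of the negative sort shared 116 barcodes and every other pair at most 13. Ptprc, which encodes CD45, had a UMI in 61.8% to 83.6% of the kept cells of each library. Il22 transcripts were found in 7 of 7928, 1 of 9647, 3 of 283 and 0 of 1345 kept cells, in the order of the barcodes above. At 0 h the share was higher in the positive sort (1.06% against 0.0883%), and at 12 h the positive cells allow at most 0.274% of cells with a UMI (exact 95% bound). Cells were clustered without the GTPases, the contrast genes and all other interferon genes used here, and classes were named from marker genes with the suffix "-like". The IL-22-negative libraries held mostly T-cell-like (2447 and 3590 cells), B-cell-like (2056 and 1925) and NK-or-ILC1-like cells (856 and 1760), while in the positive sort 44.9% and 75.5% of cells were monocyte-like. Unnamed clusters of low depth or mixed markers held 1808 and 531 cells of the IL-22-negative libraries.

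With 1 library per group no test between conditions is possible, and cells of a library are not replicates. Levels are UMIs of a gene, or summed over genes, per 1000000 UMIs of all cells of a class (CPM), with exact 95% Poisson intervals; ratios have exact 95% intervals (Clopper-Pearson). Both cover counting error only and not differences between mice or libraries. A gene was measured in a comparison with at least 30 UMIs in the 2 sums together, and differences are counted from 1.5-fold, beside the share of all measured genes past that fold. The libraries count 3′ ends, so levels are compared between cells and not between genes.

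Before the injection, GTPase transcripts were abundant in monocyte-like cells, T-cell-like cells and the NK-or-ILC1-like class and scarce in plasma-cell-like cells. The 10 GTPases together stood at 375.8 CPM in monocyte-like cells (95% interval 329 to 427) and 321.3 in T-cell-like cells (307 to 336), whose intervals overlapped. NK-or-ILC1-like cells followed at 266.9 CPM (244 to 291), apart from T-cell-like cells. Cycling (174.8), cDC-like (133.6; conventional dendritic cells), pDC-like (126.0; plasmacytoid dendritic cells) and B-cell-like cells (116.1) came next, each overlapping its neighbour, and plasma-cell-like cells were lowest at 49.2 CPM. At 12 h T-cell-like cells led at 346.7 CPM, followed by monocyte-like cells (306.2), whose interval lay apart, and by NK-or-ILC1-like cells (288.9), which overlapped them, and plasma-cell-like cells were again lowest (22.6). The sum of Ifit1, Ifit3 and Rsad2 at 0 h was highest in monocyte-like cells, with 141.3 CPM, followed by 28.0 in T-cell-like cells and 1.03 to 13.9 in the other classes of at least 50 cells.

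**Figure D1:**
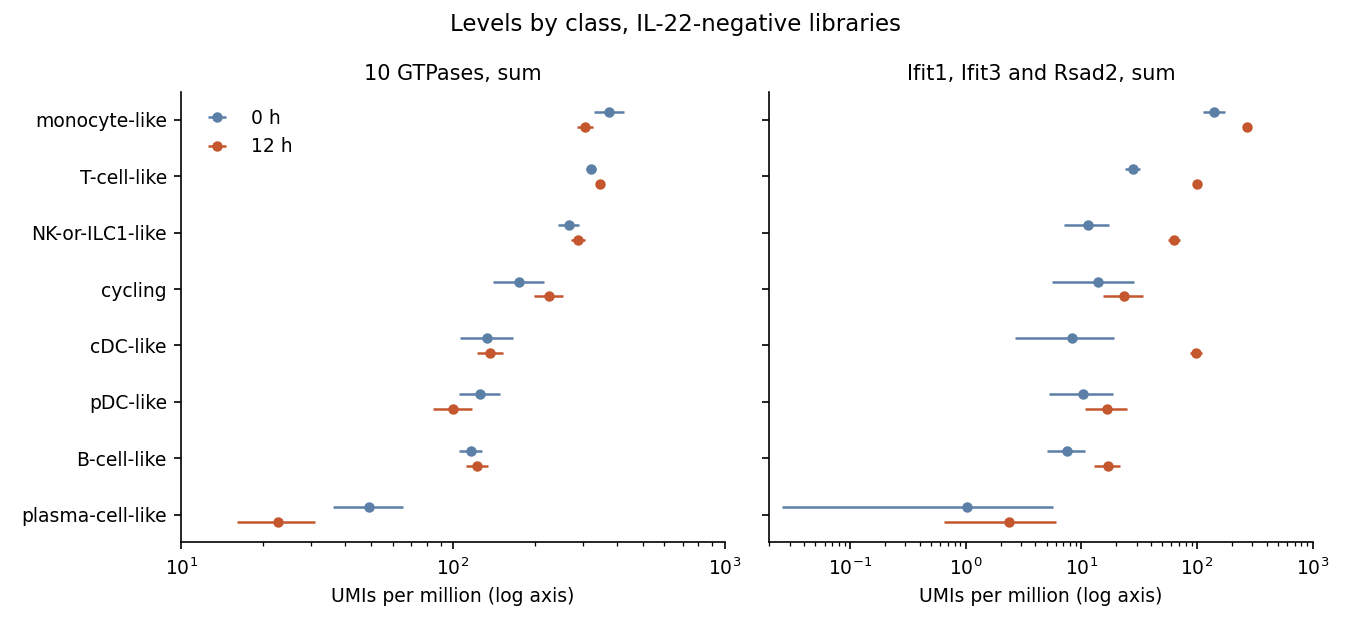
Summed level of the 10 GTPases (left) and of Ifit1, Ifit3 and Rsad2 (right) in each class of the IL-22-negative libraries, in CPM on log axes with different ranges; points are the library's value and bars exact 95% Poisson intervals. GTPase points of 0 h and 12 h lie close together except in plasma-cell-like cells, while the contrast genes of T-cell-like cells lie at 28.0 and 100.5.

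Single members had opposite patterns over the classes. Gbp2, Gbp3 and Gbp5 were higher in monocyte-like than in T-cell-like cells at 0 h, at 94.8 against 24.8 CPM for Gbp2 (3.82-fold, 2.78 to 5.18), 54.6 against 14.9 for Gbp3 (3.67-fold) and 43.4 against 14.2 for Gbp5 (3.05-fold). Irgm1 (43.4 against 20.2) and Irgm2 (30.5 against 16.1) were also past 1.5-fold. Gbp4 and Gbp6, both on chromosome 5, went the other way, with Gbp4 at 4.82 against 52.7 CPM (ratio 0.0915, 0.0188 to 0.270) and Gbp6 at 8.03 against 39.5 (0.203). Thus 5 of 10 members were higher and 2 lower, where 23.7% and 32.6% of all 8785 measured genes were. With the median gene in place of total UMIs as the scale, a shift of -0.10 was subtracted from log2 ratios here. This raised them, and the counts stayed 5 and 2. NK-or-ILC1-like cells resembled T-cell-like cells in Gbp4 (55.8 CPM, the intervals overlap), and pDC-like cells came next for it (30.3).

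At 12 h the same direction held for Gbp2 (66.4 in monocyte-like against 38.4 CPM in T-cell-like cells), Gbp3 (32.01 against 14.98) and Gbp5 (43.3 against 15.1), and for Gbp4 (10.9 against 48.8) and Gbp6 (9.88 against 39.98). In all, 3 members were higher and 4 lower in monocyte-like cells at 12 h, with 27.6% and 30.3% of all measured genes past the fold. Igtp (34.1 against 62.3) and Iigp1 (9.20 against 15.2) joined the lower ones. Gbp6 values are uncertain, since 65.5% of the 90-base windows of its last 500 transcript bases also occur in Gbp10 or Gm43302, and the overlapping spans of Igtp and Irgm2 make their counts in the shared interval uncertain too; the other members' tails had no such copy, and for Ifit3 6.57% of windows also occur in Ifit3b.

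**Figure D2:**
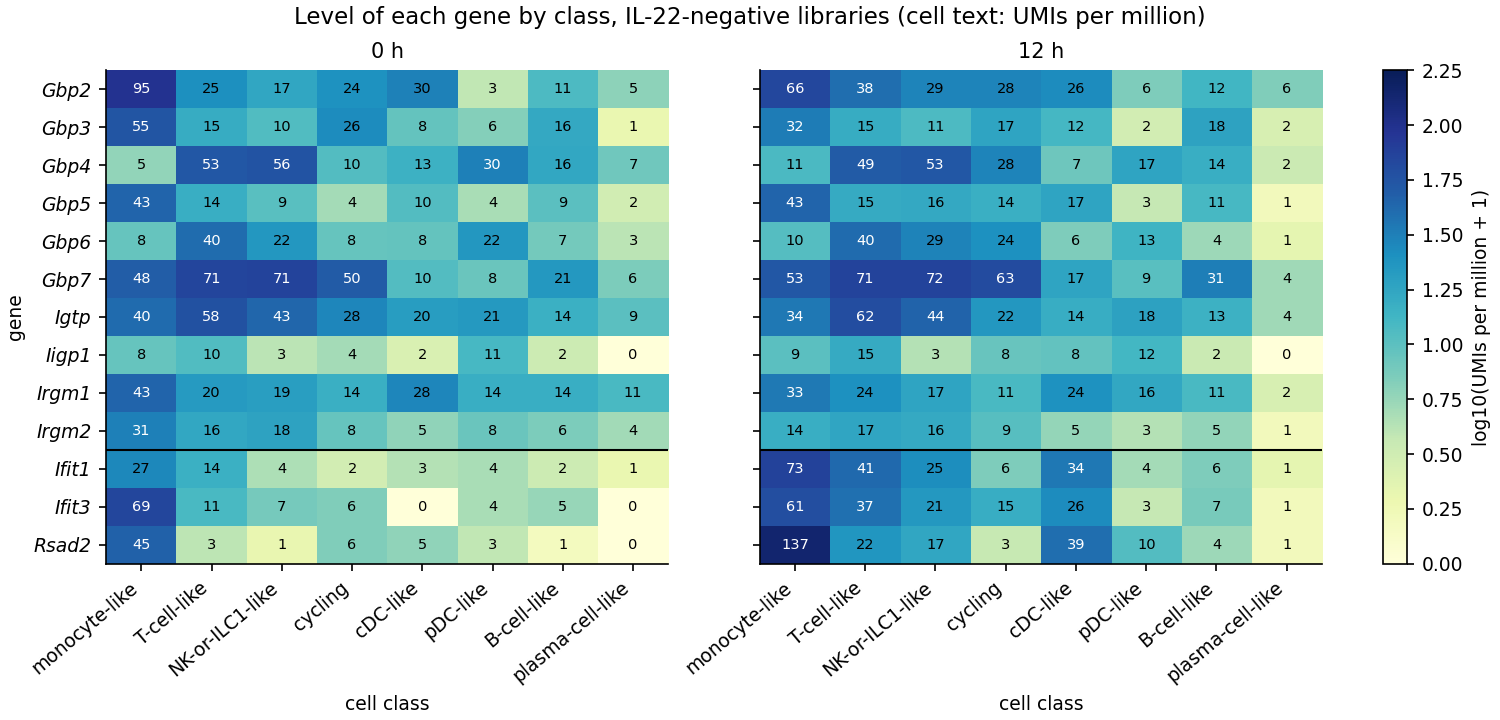
Level of each GTPase and of Ifit1, Ifit3 and Rsad2 (rows) in each class of the IL-22-negative libraries (columns) at 0 h and 12 h; colour is log10 of CPM plus 1 and the cell text is the rounded CPM. Gbp4 and Gbp6 are dark in T-cell-like and NK-or-ILC1-like cells and pale in monocyte-like cells, and Gbp2, Gbp3 and Gbp5 show the reverse.

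In T-cell-like cells the GTPases together differed little between the libraries of 0 h and 12 h, while the contrast genes were several-fold higher at 12 h. The GTPase sum was 321.3 CPM at 0 h (2032 UMIs) and 346.7 at 12 h (3217 UMIs), a ratio of 1.08 (1.02 to 1.14). The sum of Ifit1, Ifit3 and Rsad2 was 28.0 and 100.5 CPM, a ratio of 3.59 (3.06 to 4.24). The GTPase ratio lies on either side of 1 depending on the cells taken and their weighting. With clusters at a finer resolution it was 0.978. There the class included a shallow cluster (median 682 UMIs) with 1019 cells at 0 h and 279 at 12 h in the negative sort. At the main resolution a shallow cluster with similar leading genes (median 679 UMIs) was left unnamed. With each T cluster weighted equally, a choice made after the data were seen, the ratio was 1.17.

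Of the 10 members 2 were past 1.5-fold in T-cell-like cells, both higher at 12 h and both close to that fold, and none was lower; of all 9945 measured genes 2.97% were higher and 6.32% lower. Gbp2, a GBP with antibacterial function, had 24.8 CPM at 0 h and 38.4 at 12 h (1.55-fold, 1.28 to 1.88). Iigp1, the effector IRG on chromosome 18, had 10.1 and 15.2 CPM (1.502-fold, 1.11 to 2.05). The other 8 members lay between 0.927 (Gbp4, 52.7 and 48.8 CPM) and 1.198 (Irgm1, 20.2 and 24.3 CPM). Gbp7, the member with most UMIs in these cells, had 70.5 and 70.9 CPM (ratio 1.01, 0.890 to 1.14). All 3 contrast genes were past the fold, Ifit1 with 13.8 and 41.1 CPM (2.99-fold), Ifit3 with 11.2 and 37.4 (3.33-fold) and Rsad2 with 3.00 and 22.1 (7.36-fold, 4.59 to 12.5).

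NK-or-ILC1-like cells had the same contrast. Their GTPase sum was 266.9 CPM at 0 h and 288.9 at 12 h (1.08-fold, 0.975 to 1.203), and the contrast sum was 11.4 and 63.4 CPM (5.58-fold, from 22 and 249 UMIs). Gbp2 (16.5 and 28.5 CPM, 1.73-fold, 1.16 to 2.64) and Gbp5 (9.29 and 15.8 CPM, 1.70-fold, 0.992 to 3.05) were past 1.5-fold, 2 of 9 measured members, where 3.02% of all measured genes were higher. None was past it downwards, as 7.91% of all genes were. Gbp5, which promotes inflammasome activation, thus differed more in these cells than in T-cell-like cells (14.2 and 15.1 CPM), a difference that was not tested. With interferon genes allowed in the clustering the GTPase ratio was 0.966.

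**Figure D3:**
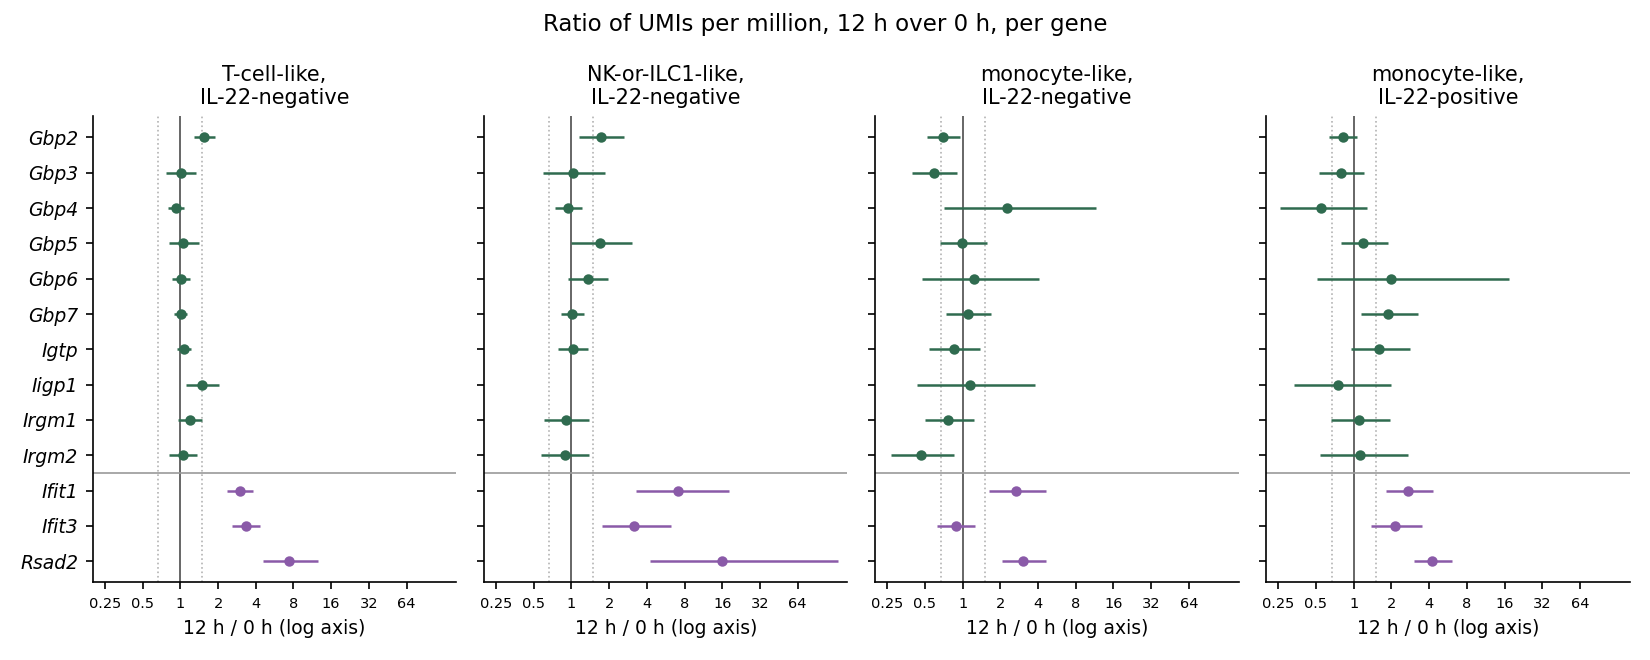
Ratio of CPM at 12 h over 0 h for each gene in T-cell-like, NK-or-ILC1-like and monocyte-like cells, on a log axis; bars are exact 95% intervals for counting error, the solid line marks 1 and dotted lines mark 1.5-fold in either direction. GTPases (green) scatter around 1 and Ifit1, Ifit3 and Rsad2 (purple) lie to the right of 1.5, except Ifit3 in IL-22-negative monocyte-like cells at 0.883.

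The T clusters differed in their GTPase ratios. Cluster 7, naive-like CD8 T cells (Cd8a, Cd8b1, Ccr7, Lef1), had a GTPase sum of 197.7 CPM at 0 h and 267.1 at 12 h (1.35-fold, 1.19 to 1.53). Cluster 11, effector-like CD8 T cells (Cd8a, Gzmk, Ccl5, Nkg7), had 291.9 and 499.1 CPM (1.71-fold, 1.36 to 2.17), the largest GTPase ratio of the 6 T and NK clusters. Cluster 4, with raised Cd4, Foxp3, Ctla4 and naive markers, had 377.4 and 308.2 CPM (0.817, 0.735 to 0.908). Cluster 1, with 3 of 6 innate-like T cell markers raised (Zbtb16, Cxcr6 and Cd40lg), had 396.3 and 399.7 CPM (1.01, 0.927 to 1.10). It also had raised gamma-delta T cell genes (Tcrg-C1 and Tcrg-C2), Tmem176a and Tmem176b of the type 17 markers, and Il2ra. So the 2 CD8 clusters were higher at 12 h, the Cd4 cluster lower, and cluster 1 level. The T-cell-like class also differed in makeup between the libraries, with cluster 1 at 34.9% and 45.6% of its cells and cluster 4 at 34.3% and 27.3%.

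The contrast genes were higher at 12 h in each of these 4 clusters, by 2.78-fold in cluster 4, 3.26-fold in cluster 1, 3.54-fold in cluster 7 and 13.8-fold in cluster 11 (16.7 and 230.5 CPM, from 6 UMIs at 0 h). Gbp2 in cluster 11 was 13.9 CPM at 0 h and 82.2 at 12 h (5.91-fold, 2.34 to 19.2, from 5 UMIs at 0 h). Gbp6 (27.8 and 76.2 CPM, 2.74-fold) and Igtp (41.7 and 78.2 CPM, 1.875-fold) were past 1.5-fold there too. In cluster 7, Gbp2 (17.8 and 33.1 CPM), Gbp5 (5.42 and 13.3 CPM) and Iigp1 (2.47 and 10.9 CPM) were all past 1.5-fold. Gbp3 (6.41 and 9.70 CPM) was past it there too, with an interval that includes 1. In cluster 4 Gbp5 (18.7 and 10.7 CPM, 0.574, 0.328 to 0.991) and Gbp6 (54.9 and 32.15 CPM, 0.585) were past it downwards. The share of all genes past the fold was not computed for single clusters, so members named by cluster have no background beside them. The Iigp1 ratio of T-cell-like cells was spread unevenly, at 1.87 in cluster 1, 4.43 in cluster 7, 0.987 in cluster 4 and 0.144 in cluster 11 (5 UMIs at 0 h and 1 at 12 h). Conventional-NK-like cluster 3 (Eomes, Klra8) had a GTPase sum of 211.2 and 285.2 CPM (1.35-fold, 1.12 to 1.64), with Gbp5 at 8.23 and 21.4. Gbp2 (1.61-fold) and Irgm1 (2.22-fold) were also past the fold in cluster 3, with intervals that include 1. Cluster 0, led by Gzmc, Xcl1 and Cd7 with raised Itga1 and also Trdc, had 300.6 and 290.8 CPM (0.968). In cluster 0 Gbp2 was past the fold upwards (1.73-fold) and Irgm1 downwards (0.615, with an interval that includes 1).

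**Figure D4:**
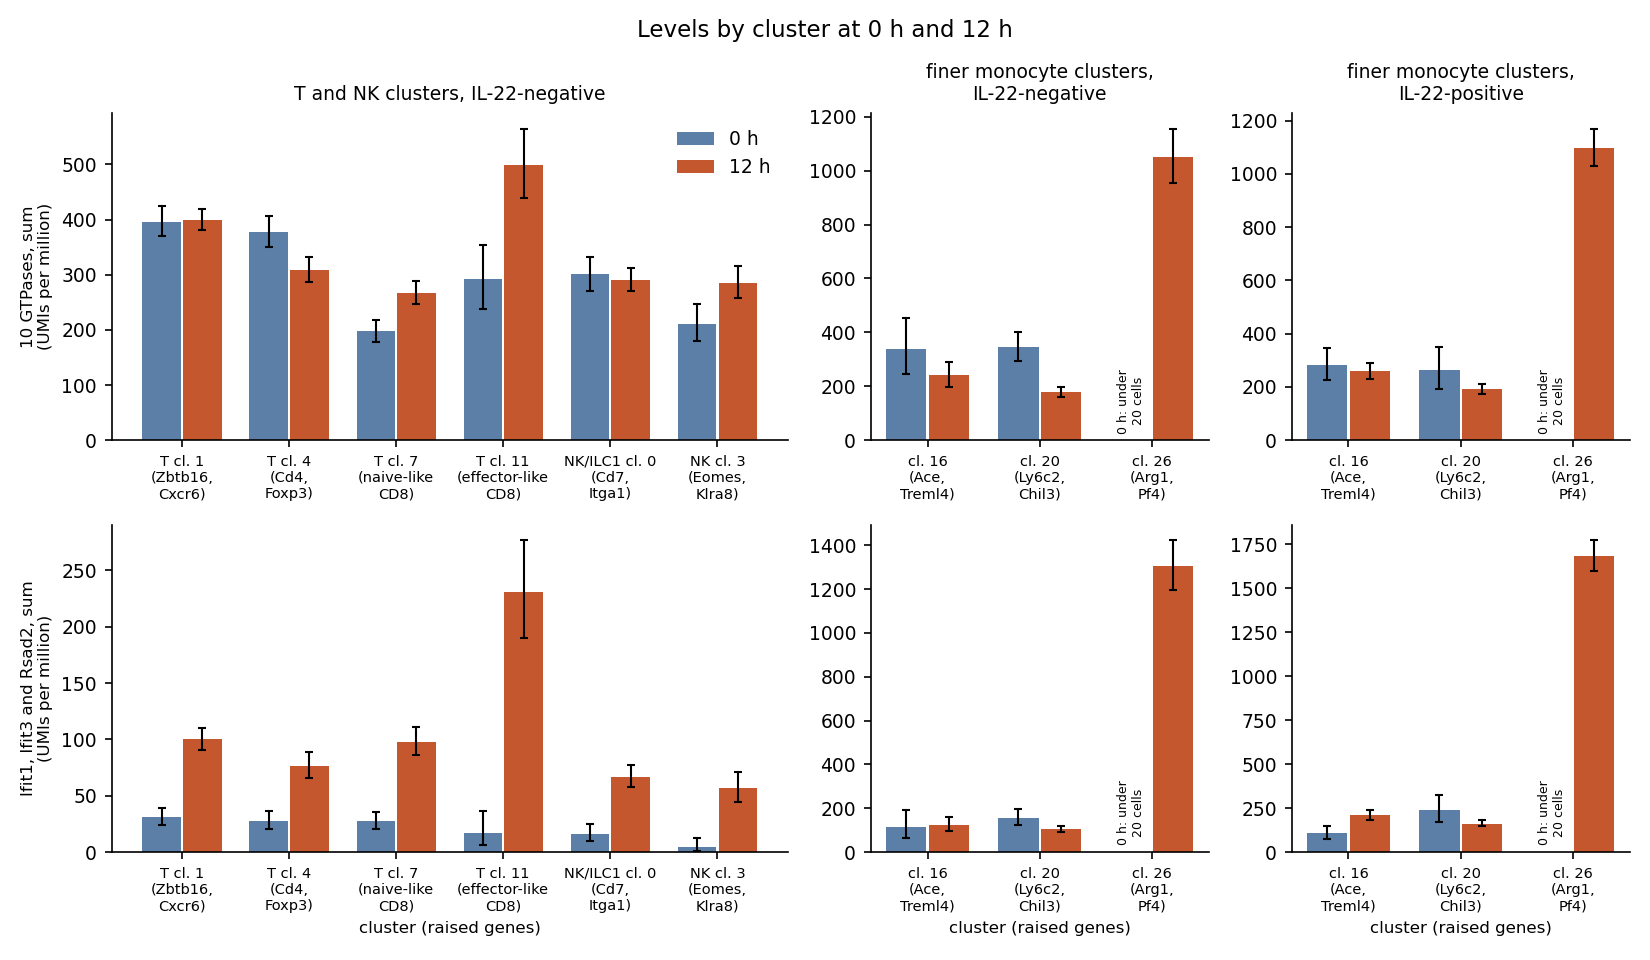
Summed level of the 10 GTPases (top) and of Ifit1, Ifit3 and Rsad2 (bottom) in CPM at 0 h (blue) and 12 h (orange), in the T and NK clusters of the IL-22-negative libraries and in the finer monocyte clusters of both sorts; bars are library values from 0 upwards with exact 95% Poisson intervals, and vertical axes differ between panels. Cluster 26, with 2 and 6 cells at 0 h (not drawn), stands above 1000 in each monocyte panel at 12 h, against at most 258.3 for the GTPases in clusters 16 and 20.

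Monocyte-like cells of the negative sort had a lower summed GTPase level at 12 h. Their GTPase sum was 375.8 CPM at 0 h (234 UMIs in 143 cells) and 306.2 at 12 h (899 UMIs in 588 cells), a ratio of 0.815 (0.705 to 0.945). That direction turned when every cell was thinned to 1000 UMIs, which gave 1.18. The contrast sum was 141.3 and 270.7 CPM (1.92-fold), carried by Ifit1 (27.3 and 72.5 CPM, 2.66-fold) and Rsad2 (45.0 and 137.2 CPM, 3.05-fold), while Ifit3 had 69.1 and 61.0 CPM (0.883).

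Among the members Gbp3 (54.6 and 32.01 CPM, 0.586, 0.392 to 0.895) and Irgm2 (30.5 and 14.3 CPM, 0.469, 0.267 to 0.853) were past 1.5-fold downwards. Gbp4 was past it upwards (4.82 and 10.9 CPM, 2.26-fold, 0.708 to 11.5), from 3 UMIs at 0 h, with an interval that includes 1. These are 2 lower and 1 higher of 10, beside 12.2% and 14.6% of 6964 measured genes. Gbp2, the most abundant in UMIs here, had 94.8 and 66.4 CPM (0.701, 0.521 to 0.955), and Gbp5 had 43.4 and 43.3.

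A small group of cells held a large share of the GTPase transcripts of the 12 h monocyte-like class. At a finer resolution the class split into 3 clusters. Genes raised over the other 2 included Ace and Treml4 in cluster 16, as in non-classical monocytes. In cluster 20 they included Ly6c2, Chil3 and F13a1, as in classical monocytes. Cluster 26 had 2 of 12 monocyte markers raised over the other 2, Fcgr4 and Ms4a4c, and 10 of 12 raised over all other cells. Its top 10 genes over all other cells were led by Arg1, Ccl24, Pf4 and Cxcl9 and held no monocyte marker. Rsad2, 1 of the contrast genes, and Cxcl10 stood among those 10 as well, although neither was used in the clustering. Cluster 26 also had 3 of 10 macrophage markers raised over the other 2 clusters, C1qa, C1qb and C1qc. It numbered 2 cells at 0 h and 81 at 12 h in the negative sort, and 6 and 217 in the positive sort.

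In cluster 26 at 12 h the GTPase sum was 1051 CPM in the negative and 1098 in the positive sort, and the contrast sum was 1305 and 1684. It held 13.8% of the cells but 46.8% of the GTPase UMIs and 65.8% of the contrast UMIs of the negative 12 h class, and 21.3%, 58.3% and 72.1% in the positive one. All 10 members were detected in it in both sorts, among them Gbp2 (279.0 and 350.5 CPM), Gbp5 (176.8 and 179.2), Gbp7 (149.4 and 146.1), Igtp (99.6 and 114.2) and Irgm2 (34.9 and 34.3). Its 8 cells of 0 h held 92 GTPase UMIs but 5 contrast UMIs, and 1 cell in each sort held 21 of 26 and 29 of 66 of those GTPase UMIs.

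Outside cluster 26 the GTPases were lower at 12 h in the negative sort. Cluster 20 had 344.9 CPM at 0 h and 178.3 at 12 h (0.517, 0.429 to 0.625), and its contrast sum was also lower, 155.6 and 104.1 CPM (0.669). Cluster 16 had 338.2 and 241.5 CPM (0.714, 0.499 to 1.04), with its contrast sum at 115.3 and 124.1. In the positive sort the GTPase ratio was 0.914 in cluster 16 (282.7 and 258.3 CPM) and 0.734 in cluster 20 (262.7 and 192.9 CPM). The contrast sum of cluster 16 was higher at 12 h in that sort, 106.8 and 209.9 CPM (1.97-fold, 1.37 to 2.91). Without the cell that held most UMIs of the sum in each library, the cluster 20 value of the positive sort was 1.04, and its contrast ratio went from 0.676 to 2.002, since 1 cell held 30 of the 42 contrast UMIs at 0 h.

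Monocyte-like cells of the positive sort had a GTPase sum of 380.3 CPM at 0 h (127 cells) and 397.6 at 12 h (1016 cells), a ratio of 1.05 (0.902 to 1.22). Their makeup by finer cluster differed between the libraries. Cluster 16 made up 68.0% and 34.7% of the cells, cluster 20 27.3% and 44.1%, and cluster 26 4.69% and 21.3%. The contrast sum was 152.9 and 493.3 CPM (3.23-fold), and 4.94-fold without the cell that held most of its UMIs in each library. Gbp7 (32.5 and 60.6 CPM, 1.87-fold, 1.14 to 3.26), Igtp (30.6 and 48.3 CPM, 1.58-fold, 0.949 to 2.82) and Gbp6 (3.82 and 7.64 CPM, 1.999-fold, from 2 UMIs at 0 h) were past 1.5-fold upwards. Gbp4 was past it downwards (17.2 and 9.37 CPM, 0.545, 0.259 to 1.28, from 9 UMIs at 0 h), so that 3 members were higher and 1 lower, beside 16.0% and 19.7% of 7359 measured genes. The intervals of Gbp4, Gbp6 and Igtp include 1, so counting error alone leaves their direction undetermined. Median scaling subtracted a shift of -0.10 from these log2 ratios, which raised them, and gave the same counts, 3 and 1.

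Between the sorts, monocyte-like cells had like GTPase sums at 0 h (ratio of positive over negative 1.01, 0.833 to 1.23) and differed at 12 h (397.6 against 306.2 CPM, 1.30-fold, 1.196 to 1.41). Gbp2 was the 1 member past 1.5-fold at 12 h (108.0 against 66.4 CPM, 1.63-fold, 1.37 to 1.94), where 9.82% of 8262 measured genes were higher; at 0 h none of 6 measured members was, with 17.3% of all genes higher and 13.1% lower. The share of cluster 26 among the cells of the class at 12 h, 13.8% and 21.3%, differs in the same direction, and its part in the difference was not tested. At 0 h the makeup of the class differed too, with cluster 16 at 27.5% in the negative and 68.0% in the positive sort.

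T-cell-like cells of the positive sort, 36 and 38 cells, had 21 and 20 GTPase UMIs (ratio 1.10, 0.568 to 2.14). No member was measured there, so none counted beside 6.13% of all measured genes higher and 23.4% lower.

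Macrophage-like cells were few. Of the marker list, C1qa, C1qb, C1qc and Adgre1 were raised in this cluster, 4 of 10, and the Kupffer cell genes Clec4f, Vsig4, Timd4 and Marco were not. In the same cluster 6 of the 12 monocyte markers were raised, so the class is one of C1q-high cells. In the positive sort its GTPase sum was 152.3 CPM at 0 h (31 UMIs in 48 cells) and 385.7 at 12 h (205 UMIs in 160 cells), a ratio of 2.53 (1.73 to 3.83), and the contrast sum was 34.4 and 445.9 CPM (12.97-fold, from 7 UMIs at 0 h). Gbp2, the 1 measured member, had 34.4 and 88.4 CPM (2.57-fold, 1.16 to 6.74), beside 19.9% of measured genes higher. Both values shrank when interferon and GTPase genes were allowed in the clustering, to 1.10 for the GTPases and 2.26 for the contrast genes. At 12 h the negative sort had 143.5 CPM (48 cells), and the positive sort was 2.69-fold higher (1.83 to 4.09), with Gbp2 at 9.57 against 88.4 CPM, beside 20.4% of measured genes higher.

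In cDC-like cells the GTPases again stood level while the contrast genes were higher. Their GTPase sum was 133.6 CPM at 0 h and 136.8 at 12 h (1.02, 0.801 to 1.32), and the contrast sum was 8.25 and 98.3 CPM (11.9-fold, from 5 UMIs at 0 h). The latter ratio was 5.63 after thinning and 26.5 without the cell that held most of its UMIs in each library. Gbp5 and Gbp7 each had 9.90 and 17.3 CPM (1.74-fold, 0.738 to 5.01), 2 of 6 measured members, where 10.2% of all genes were higher and 11.9% lower. B-cell-like cells had 116.1 and 122.9 CPM (1.06, 0.927 to 1.21), with Gbp6 as the 1 of 9 members past the fold (6.72 and 4.36 CPM, 0.649, from 26 and 16 UMIs), beside 7.97% of genes lower and 2.65% higher; with median scaling this count became 0 lower and 1 higher (Gbp7, 21.5 and 31.1 CPM). Their contrast sum was 7.499 and 16.9 CPM (2.254-fold).

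In pDC-like cells, the chief makers of type I interferon in blood and spleen, the GTPase sum was 126.0 and 99.9 CPM (0.793, 0.623 to 1.01). Their contrast sum was 10.4 and 16.8 CPM (1.61-fold, 0.763 to 3.62), a direction that turned after thinning (0.715). Gbp4 (30.3 and 17.4 CPM, 0.575) and Gbp6 (21.8 and 12.7 CPM, 0.585) were the 2 of 5 measured members past the fold, both lower, where 8.14% of all genes were lower and 4.1% higher. Plasma-cell-like cells had 49.2 and 22.6 CPM (0.459), from 48 and 38 UMIs, with no single member measured. Cycling cells had 174.8 and 225.2 CPM (1.29, 1.01 to 1.66), a direction that turned with equal weight per cell (0.817) or after thinning (0.819). Their contrast sum was 13.9 and 23.3 CPM (1.68-fold, 0.712 to 4.56), which turned under the same settings (0.371 and 0.295). Among their members Gbp4 (9.93 and 28.5 CPM, 2.87-fold, from 5 UMIs at 0 h) and Gbp6 (7.94 and 24.2 CPM, 3.04-fold, from 4 UMIs) were higher, 2 of 6, beside 6.66% of all genes.

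In T-cell-like and NK-or-ILC1-like cells the share of cells with a GTPase transcript was similar at both times, and the share with a contrast transcript was higher at 12 h. After thinning each cell to 1000 UMIs, leaving out 116 and 89 shallower T-cell-like cells, 26.2% of T-cell-like cells at 0 h and 25.0% at 12 h had a GTPase UMI (46.8% and 44.3% before thinning). The share with a UMI of Ifit1, Ifit3 or Rsad2 was 2.27% (1.71% to 2.96%) and 6.23% (5.45% to 7.08%), or 4.82% and 10.5% before thinning. For NK-or-ILC1-like cells the thinned shares were 22.7% and 21.5% for the GTPases and 0.729% and 4.51% for the contrast genes. Plasma-cell-like cells had thinned shares of 4.26% and 3.57% for the GTPases and 0% and 0.714% for the contrast genes. B-cell-like cells had 0.793% and 1.25% for the latter. Before thinning, plasma-cell-like cells had 36.5% and 18.6% for the GTPases, at median depths of 11371.5 and 12069 UMIs against 2395 and 2298 in T-cell-like cells. Free RNA can give such UMIs in any class, and its part was not tested.

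Monocyte-like cells differed from that pattern. In the negative sort the share with a contrast UMI was lower at 12 h, at 12.7% and 9.56% after thinning and 22.4% and 16.7% before, with overlapping intervals, although the summed contrast level was higher. In the positive sort it was 5.60% and 14.1% after thinning but 20.5% and 20.6% before. The thinned share with a GTPase UMI was 16.9% and 18.8% in the negative and 22.4% and 21.03% in the positive sort.

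GTPase levels were higher in cells that also had a transcript of a contrast gene than in other cells of their class. Among T-cell-like cells at 12 h thinned to 1000 UMIs, the 218 cells with a UMI of Ifit1, Ifit3 or Rsad2 had 1385 GTPase CPM and the 3283 cells without one had 291.5, a ratio of 4.75 (4.16 to 5.41). At 0 h the 53 cells with one had 905.7 CPM and the 2278 without 333.2 (2.72, 1.99 to 3.64). Within cluster 1 the ratio was 2.59 at 0 h (1.58 to 4.03) and 4.67 at 12 h (3.88 to 5.60), with overlapping intervals, and whether the ratio differs between the times was not tested. A GTPase UMI was found in 61.5% of the 12 h cells with a contrast UMI and in 22.6% of those without.

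Every member was higher in the T-cell-like cells with a contrast UMI at 12 h. In falling order of the ratio, the levels went from Iigp1, at 114.7 CPM with and 9.44 without, through Gbp3 (91.7 and 11.6), Gbp5 (87.2 and 13.4), Gbp6 (197.2 and 31.98), Irgm2 (78.0 and 13.7), Gbp2 (160.6 and 30.8), Igtp (233.9 and 51.5) and Irgm1 (73.4 and 17.4) to Gbp7 (211.0 and 66.7) and Gbp4 (137.6 and 45.1). The genes of the monocyte marker list differed with this split. In cells with a contrast UMI 7 of 12 were detected, at a summed 2005 CPM, and in cells without 11 of 12, at 1115 CPM. The 7 were Ly6c2, Ccr2, Chil3, Plac8, Nr4a1, Ms4a4c and Vcan, while F13a1, Ace, Treml4, Csf1r and Fcgr4 stood at 0 in the cells with a contrast UMI. Macrophage markers were 0 of 10 detected with and 2.13 CPM without, cDC markers 32.1 and 61.5 CPM, B-cell markers 59.6 and 89.9 CPM, and T-cell markers 4546 and 4851 CPM. The part of the monocyte genes in the result was not tested.

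**Figure D5:**
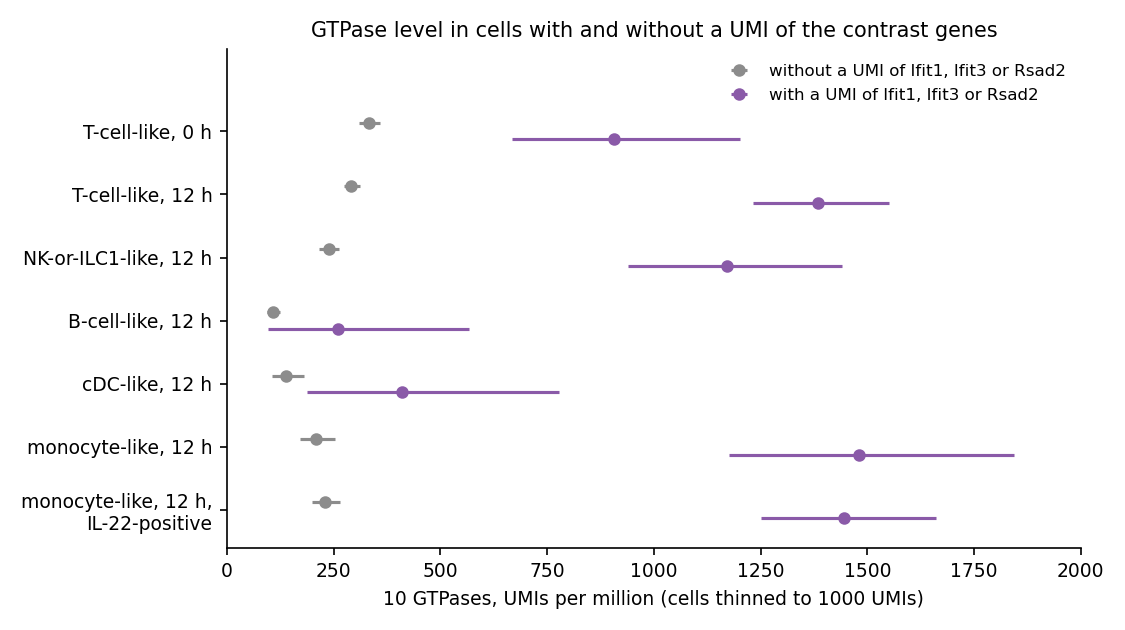
Summed level of the 10 GTPases in cells with (purple) and without (grey) a UMI of Ifit1, Ifit3 or Rsad2, every cell thinned to 1000 UMIs, in CPM with exact 95% Poisson intervals. At 12 h the T-cell-like, NK-or-ILC1-like and monocyte-like groups with a UMI stand between 1171 and 1481, those without between 209.4 and 291.5; the intervals of B-cell-like cells overlap.

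Other classes gave the same direction at 12 h. NK-or-ILC1-like cells had 1171 and 237.9 CPM (4.92-fold, 3.86 to 6.22; 76 and 1610 cells), with monocyte markers at 684.2 and 719.9 CPM. Monocyte-like cells had 1481 and 209.4 CPM (7.08-fold) in the negative and 1445 and 230.3 (6.28-fold) in the positive sort. The ratio was smaller in cDC-like cells (2.96, 1.29 to 6.02) and its interval included 1 in B-cell-like cells (2.40, 0.871 to 5.32). Within single clusters at 12 h it was 4.67 in cluster 1, 4.98 in cluster 4, 5.70 in cluster 7, 3.12 in cluster 11, 5.25 in cluster 0 and 4.30 in cluster 3. In monocyte cluster 26 it was 2.84 in the negative and 3.31 in the positive sort. There, 35 of 81 and 82 of 217 cells had no GTPase UMI at all, so the high sums of this cluster came from part of its cells.

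In the wider interferon pathway of T-cell-like cells, type I targets were mostly past the fold and interferon gamma targets mostly not. Of all 9945 measured genes in this comparison 2.97% were higher and 6.32% lower. Of 26 measured type I interferon targets, a list that includes Ifit1, Ifit3 and Rsad2, 19 were past 1.5-fold higher at 12 h and none lower, with a median log2 ratio of 1.08 against -0.06 over all measured genes; Isg15, a ubiquitin-like modifier, had 181.7 and 499.8 CPM. Of 14 measured interferon gamma targets 2 were higher and none lower (median 0.10), the chemokine gene Cxcl10 (63.9 and 191.7 CPM, 3.00-fold), which type I interferon also induces, and Cd274, which encodes PD-L1 (11.7 and 19.9 CPM, 1.70-fold). Tap1, an antigen peptide transporter, had 58.0 and 43.1 CPM (0.743). None of 9 other measured GTPases of these families was past the fold (median 0.15), a count near the share of all genes. Gbp10, Gbp8 and Tgtp1 were the highest at 1.26, 1.25 and 1.24 and Gvin1 the lowest at 0.775.

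Among 14 receptor and signalling genes 2 were higher, the feedback inhibitors Usp18 (15.2 and 38.6 CPM, 2.54-fold) and Socs3 (1.54-fold). Of 8 transcription factors Irf7 was higher (42.9 and 69.6 CPM, 1.63-fold), and Irf1, a main driver of GBP genes, had 342.4 and 309.4 CPM (0.904). None of the 9 genes of the machinery that targets the GTPases to vacuoles (Atg and Gabarap genes) and none of 5 measured inflammasome partners was past the fold. These counts lie near the share of all measured genes, 2.97% higher and 6.32% lower. NK-or-ILC1-like cells had 16 of 24 type I targets higher (median log2 ratio 0.85) and 1 of 14 interferon gamma targets, beside 3.02% of all measured genes higher and 7.91% lower.

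Monocyte-like cells of the negative sort did not show that split. Of 26 type I targets 5 were higher (Rsad2, Oasl1, Ifit1, Ifit2 and Ly6a) and 5 lower (Ifi27l2a, Oas3, Zbp1, Xaf1 and Oas1a), with a median log2 ratio of -0.07. Both shares lie near those of all measured genes in this comparison, 14.6% higher and 12.2% lower, as do the counts of interferon gamma targets. Of 15 interferon gamma targets Cxcl10 (281.1 and 933.5 CPM, 3.32-fold) and Cd274 (2.16-fold, from 5 UMIs at 0 h) were higher, and Cxcl9 (316.4 and 124.3 CPM, 0.393), Tap1 (81.9 and 45.3 CPM, 0.553) and B2m (0.662) lower. Irf1 (377.4 and 251.0 CPM, 0.665), Irf2 (0.659) and the interferon gamma receptor chain Ifngr2 (0.644) were past the fold downwards, and Tgtp1 was the 1 of 5 other GTPases past it (8.03 and 15.7 CPM, 1.95-fold). The counts of transcription factors, 1 higher (Irf3) and 2 lower of 8, became 1 and 0 with median scaling. In the positive sort 12 of 26 type I targets were higher and 2 lower, and 1 of 15 interferon gamma targets was higher and 7 lower, where 16.0% of all measured genes were higher and 19.7% lower.

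Transcripts of interferon gamma itself were found at both times. Ifng stood at 150.5 and 169.0 CPM in T-cell-like and 279.8 and 319.2 CPM in NK-or-ILC1-like cells at 0 h and 12 h. Ifnb1, a type I interferon, had 0 UMIs in T-cell-like and NK-or-ILC1-like cells of the negative sort, which allows at most 0.323 CPM in T-cell-like cells at 12 h (3 UMIs of the total), and 1 UMI in monocyte-like cells of that library.

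The genes most like the GTPase sum over the 16 class-by-time sums of the IL-22-negative libraries, among 2462 genes with a mean of at least 50 CPM, were Ifngr1 and Resf1 (Pearson r 0.950 each), Mbp (0.948), Pdcd6ip (0.938) and Ptprc (0.935). Ifngr1 encodes the ligand-binding chain of the interferon gamma receptor. Without plasma-cell-like cells, which are low in most of these genes, r was 0.895 for Ifngr1 and 0.930 for Resf1 over 14 sums. The genes most like the contrast sum were others, Aldoa (0.909), Parp14 (0.874), Cebpb (0.867), Cxcl2 (0.866) and Lilrb4a (0.848), and the contrast sum itself had r = 0.706 with the GTPase sum. Among the members r with the sum ran from 0.577 (Gbp4) to 0.922 (Igtp). The sums share libraries and are not independent, so these values describe likeness only.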

How the data were processed

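The deposited matrices hold whole UMI counts per gene and barcode of 10x Single Cell 3' v2 libraries, per the labels' protocols, with no scaling visible in the values. Per the file headers they came from Cell Ranger 4.0.0, while mm10 and Cell Ranger 3.0.1 are named in the submitters' processing notes. The members and all gene lists were chosen with earlier results of these data known. A barcode needed 200 genes or more and less than 10% of UMIs from mitochondrial genes, and 373, 452, 6 and 5 doublets called by Scrublet were removed; 7928, 9647, 283 and 1345 cells remained.

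Clusters (scanpy 1.11.5) were built on log counts per 10000 and 2000 variable genes, among them no antigen receptor segment, not Il22 and none of 112 interferon genes, with 30 principal components, 15 neighbours and Leiden resolution 1, giving 19 clusters. A class name needs at least 3 list markers raised at least 1.5-fold; the naming thresholds were set after clusters were seen. UMIs were summed per class and library and given as CPM. Ratios rest on total UMIs, a floor of 3 UMIs marks what a count of 0 allows, and classes needed 50 cells at both times (20 in the IL-22-positive libraries). Named genes are all members, the contrast genes, the 2 highest and 2 lowest ratios of lists or their counts, and the 5 genes most alike by log2(CPM + 10); further genes of the lists that are named were chosen after their values were seen. The scripts were tested on simulated data with counting error only. There, of genes simulated without change, 13.5% passed 1.5-fold in IL-22-negative monocyte-like cells and 4.27% in IL-22-negative T-cell-like cells, both directions together. Gene positions are from GENCODE vM21 and promoter windows from RefSeq. Of the 18 other GTPases listed 13 were matched by symbol in the features.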

Additional observations from a re-analysis of the deposited data

Results flagged for a closer look

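Gbp4 in monocyte-like cells had a ratio of 12 h over 0 h of 0.545 in the IL-22-positive sort (9 UMIs at 0 h and 38 at 12 h) and 2.26 in the IL-22-negative sort (3 and 32 UMIs). The 2 ratios lie on opposite sides of 1, which is what singled the gene out, and this difference was not tested. Both 95% counting intervals, 0.259 to 1.28 and 0.708 to 11.5, include 1.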

How the results depend on the processing

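No paired analysis was possible because each group has 1 library, and leaving out a replicate was not possible for the same reason. Of 89 alternative values of the GTPase sums 79 lay within the 95% interval of the reported ratio, and of 73 for the contrast sum 63. Thinning each cell to 1000 UMIs gave GTPase ratios of 0.819 in cycling, 1.18 in IL-22-negative and 1.29 in IL-22-positive monocyte-like cells, and contrast ratios of 1.44 in IL-22-negative monocyte-like cells and, reversed, 0.295 in cycling and 0.715 in pDC-like cells (reported as 1.68 and 1.61). The mean of per-cell CPM gave GTPase ratios of 0.817 in cycling, 0.227 in plasma-cell-like and 1.01 in T-cell-like cells, and a reversed contrast ratio of 0.371 in cycling cells. Interferon genes among the variable genes gave GTPase ratios of 0.966 in NK-or-ILC1-like and 1.10 in macrophage-like cells, and contrast ratios of 5.95 in cycling and 2.26 in macrophage-like cells. Leiden resolution 2 gave 0.978 for the GTPases in T-cell-like cells, and equal weights of the T clusters, chosen after the data were seen, 1.17 for the GTPases and 4.93 for the contrast genes. Without the cell with most UMIs the contrast ratio was 4.58 in cycling, 5.18 in pDC-like and 4.94 in IL-22-positive monocyte-like cells.

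Of the members past the fold, 0 were past 2-fold in B-cell-like, NK-or-ILC1-like, T-cell-like, cDC-like, pDC-like and IL-22-positive monocyte-like cells. With at least 100 UMIs required, 0 counted in B-cell-like, 1 in IL-22-negative monocyte-like, 1 in NK-or-ILC1-like and 2 in IL-22-positive monocyte-like cells. After thinning, 1 counted in NK-or-ILC1-like and 1 in T-cell-like cells. The ratio between NK-or-ILC1-like cells with and without a contrast UMI was 3.71 when thinned to 2000 UMIs. The cause of these shifts was not tested. Gbp4 and Gbp6 in monocyte-like cells, with under 10 UMIs at 0 h, have intervals that include 1, so that their direction is not determined at this depth.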

Other observations

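Neutrophil-like cells of the negative sort (10 at 0 h and 51 at 12 h) had a GTPase sum of 182.9 CPM (95% interval 112 to 283) and 247.0 CPM of Ifit1, Ifit3 and Rsad2 at 12 h. All UMIs of the latter came from 2 cells, 3.92% of the class. Basophil-or-mast-like cells (39 and 25 cells) had GTPase sums of 157.9 and 159.3 CPM and contrast sums of 45.1 and 172.6 CPM, from 4 and 13 UMIs. Both sets of values rest on small numbers of UMIs and are given with no comparison.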
